A study of Rattus norvegicus with 12 samples.

Results

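The genes of ATP synthase, respiratory complex III and coenzyme Q synthesis were followed in left ventricular RNA from rats with a myocardial infarction (MI) and from sham-operated rats. Members were all genes whose symbol begins with Atp5, Atpaf, Mt-atp, Mt-cyb, Uqcr, Uqcc, Coq or Pdss, plus Cyc1 and Tmem70. This rule took 47 of the 30560 genes listed in the count table, and 46 of them, with 44 different symbols, had at least 10 reads over all libraries and were tested. By role they were 18 entries for subunits of ATP synthase, 1 inhibitor of it, 10 entries for subunits of complex III, 5 assembly factors and 13 genes of coenzyme Q synthesis and use. The study gave urolithin A (UA), a compound that gut bacteria make from plant ellagitannins and that is studied as an inducer of mitophagy, to rats in which a coronary artery had been tied. All animals were male Wistar rats operated on at 7 weeks of age. Sham rats had the chest opened without a suture and received vehicle, a solution of 0.5% carboxymethylcellulose. MI rats had a permanent ligature of the left anterior descending coronary artery and received vehicle, and MI + UA rats had the same ligature and were gavaged daily with urolithin A over 8 weeks. The series description gives the compound as 50 mg/ml, but the sources of the study differ on the dose and on when dosing began, so neither is settled here. There were 4 rats in each group, with 1 library per rat, made from formalin-fixed and paraffin-embedded sections of the left ventricle. The study's methods list 5 MI + UA samples and state that 1 of them was excluded as a clear outlier in expression. No unoperated rats and no sham-operated rats given urolithin A were among the samples, so the compound was measured only after infarction.

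ATP synthase uses the proton gradient across the inner mitochondrial membrane to make ATP. A ring of c subunits turns in the membrane and drives the catalytic head, F1, which a peripheral stalk holds still. Complex III takes electrons from reduced coenzyme Q, a lipid with a long isoprenoid tail, passes them to cytochrome c and pumps protons as it does so. Most parts of these machines are encoded in the nucleus, while Mt-atp6, Mt-atp8 and Mt-cyb are encoded by the mitochondrial genome. Heart muscle depends on this pathway for nearly all of its ATP, and cardiomyocytes are densely packed with mitochondria.

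The libraries held between 6228706 and 19031695 reads assigned to genes, of which 50.2 to 58.6% came from the 13 mitochondrially encoded genes. Levels are given in CPM, the reads of a gene scaled to a fixed library total of reads assigned to genes, after the TMM method, which sets libraries to a common level over most genes. The tissue carried the markers of heart muscle, and their summed level ranged from 49100 to 56000 CPM in Sham, from 34300 to 40400 CPM in MI and from 36000 to 47200 CPM in MI + UA. Of 9 cardiomyocyte markers tested, 9 were lower in MI than in Sham, with a median log2 fold change of -0.448, whereas 6 of 8 fibroblast markers and 7 of 8 macrophage markers were higher. Fibroblast markers summed to 1130 to 1440 CPM in Sham and 2190 to 3570 CPM in MI, and macrophage markers to 121 to 152 CPM and 246 to 397 CPM. None of these markers was at 0 in every library, and 4 of 4 smooth muscle markers had positive fold changes, 3 of them past the test, while 1 of 6 endothelial markers was lower and adipocyte markers summed to at most 3.29 CPM in any library. In such bulk tissue fewer cardiomyocytes and less RNA per cardiomyocyte cannot be told apart, and the part of cell composition in the differences below was not tested. Rat 66 was labelled MI + UA, but another table of the study lists this animal with vehicle-treated MI rats; it was kept in MI + UA, and counting it in MI was tried as an alternative.

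Nuclear genes of all 3 systems were among those lower after infarction. In MI against Sham, 27 of the 46 tested members fell and 0 rose at an adjusted p under 0.05 by edgeR's quasi-likelihood test over 18182 genes, where 5.53% of all genes fell and 5.82% rose. The 27 were 13 of 18 entries for ATP synthase subunits, 6 of 9 complex III subunits, 3 of 5 assembly factors and 5 of 13 coenzyme Q genes. The ATP synthase entries not called were Mt-atp6, Mt-atp8 and sparse entries that share a symbol. The sparse ones were both entries of Atp5mc1 (63 and 32 reads in all) and the second of Atp5mk (59 reads). The median log2 fold change was -0.437 over the members and 0.026 over all genes tested, and 43 of the 46 members had a value below 0. For 25 members each MI rat lay below each Sham rat, a pattern seen in 7.56% of all genes. All 27 calls kept their side of the threshold under the 7 alternatives of filter, tool, scaling, samples fitted and group of rat 66, and 22 also did so when any rat was left out. The exceptions were Atp5me, Atp5pf, Atpaf1, Coq2 and Uqcrb. The share of reads assigned to genes moved with infarction too: it was 46.9 to 48.3% in Sham and 43.3 to 44.8% in MI, without overlap, and 42.9 to 47.2% in MI + UA. Its part in the lower levels was not tested.

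**Figure D1:**
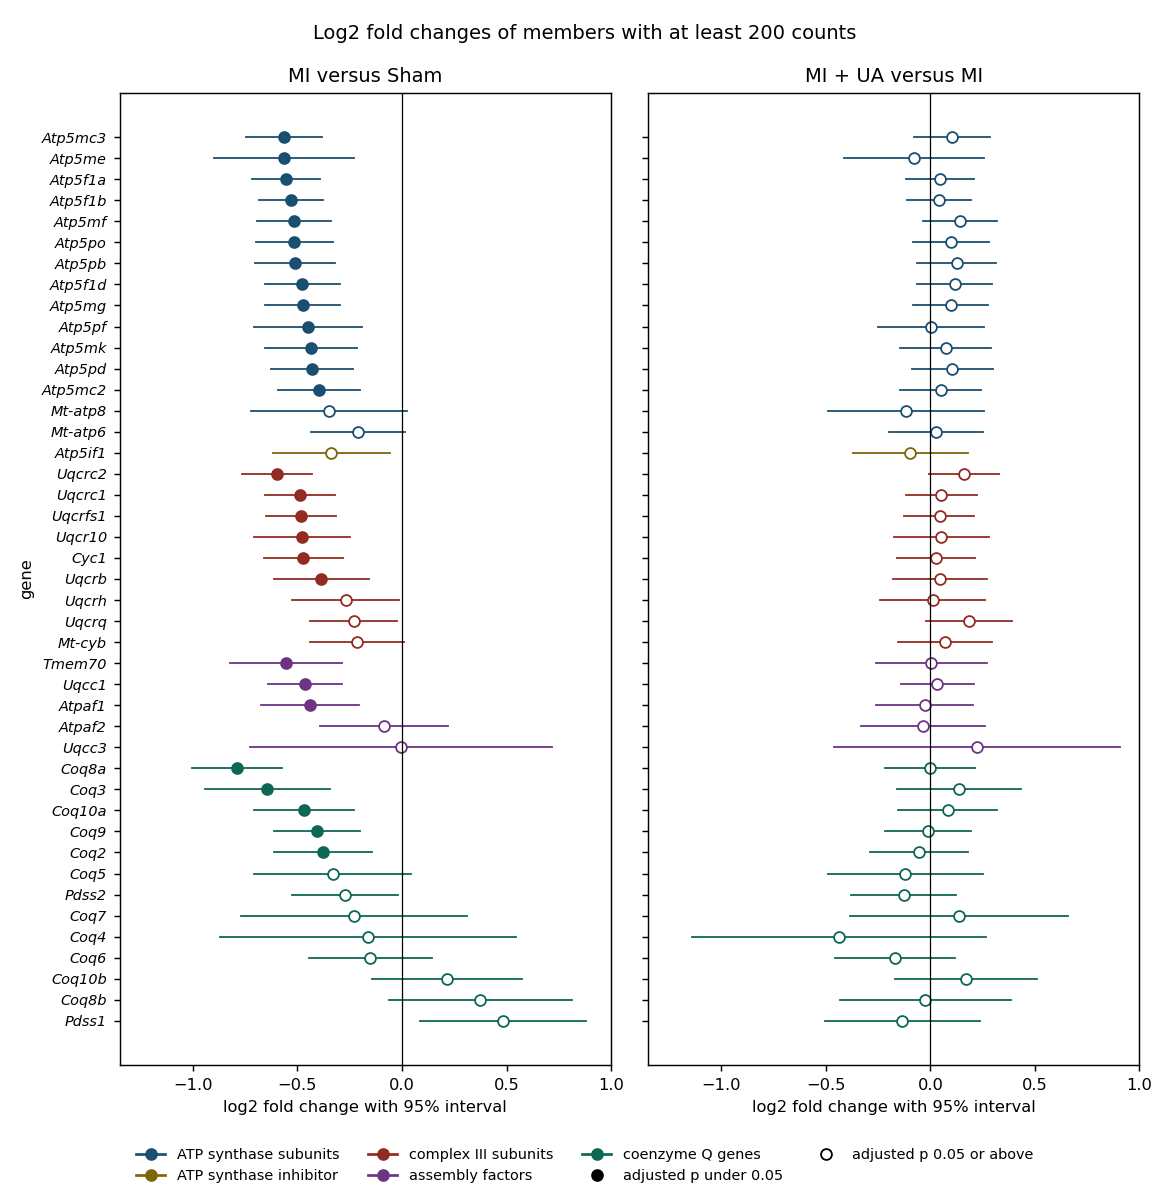
Log2 fold change (points) with its 95% interval (lines) for the 43 members with at least 200 counts in total, in MI against Sham (left) and in MI + UA against MI (right), coloured by role; filled points passed an adjusted p under 0.05. On the left 27 points are filled and all lie below 0, while on the right none is filled and the points lie around 0.

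The catalytic head of ATP synthase was lower after infarction. Atp5f1b (ENSRNOG00000002840), the beta subunit that carries the catalytic sites, measured 1040, 1150, 1080 and 1160 CPM in the 4 Sham rats, 774, 800, 760 and 739 CPM in the 4 MI rats and 815, 737, 770 and 841 CPM in the 4 MI + UA rats. The mean was 1110 ± 55.2 CPM in Sham and 768 ± 25.8 CPM in MI (SD, n = 4 each), a fall with a log2 fold change of -0.53 ± 0.07 (SE) with an adjusted p of 8e-05 by edgeR, and the lowest Sham rat stood above the highest infarcted rat of either treatment. Atp5f1a, the alpha subunit, measured 581, 674, 642 and 719 CPM in the 4 Sham rats, 451, 452, 430 and 451 CPM in the 4 MI rats and 460, 432, 454 and 496 CPM in the 4 MI + UA rats. The groups were again apart, with a log2 fold change of -0.55 ± 0.08 between MI and Sham (edgeR adjusted p = 9.22e-05). Atp5f1d, the delta subunit of the central stalk, also fell, by 0.48 on the log2 scale. The gamma and epsilon subunits were not analysed here.

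The peripheral stalk fell as a whole: 4 of its 4 subunits passed the test, with log2 fold changes from -0.514 to -0.43. Atp5po, the subunit that joins the stalk to the head, measured 125, 159, 161 and 165 CPM in the 4 Sham rats, 106, 112, 104 and 104 CPM in the 4 MI rats and 115, 105, 117 and 119 CPM in the 4 MI + UA rats. Its Sham and MI rats did not overlap, although Sham rat 12 was well below the other Sham rats, and the log2 fold change was -0.51 ± 0.09 (edgeR adjusted p = 0.00057). Atp5pb, the membrane-anchored b subunit, measured 154, 163, 144 and 163 CPM in the 4 Sham rats, 115, 117, 108 and 97.7 CPM in the 4 MI rats and 105, 130, 109 and 133 CPM in the 4 MI + UA rats. It was lower by a log2 fold change of -0.51 ± 0.09 in MI (edgeR adjusted p = 0.000792). Atp5pd and Atp5pf, which make up the rest of the stalk, had log2 fold changes of -0.43 and -0.45.

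The c ring that rotates in the membrane is built from 1 protein encoded by several nuclear genes, which differ in their targeting sequence. Atp5mc3 measured 213, 281, 269 and 284 CPM in the 4 Sham rats, 176, 187, 171 and 175 CPM in the 4 MI rats and 185, 183, 193 and 200 CPM in the 4 MI + UA rats. No MI or MI + UA rat reached a Sham rat, and Atp5mc3 fell with a log2 fold change of -0.56 ± 0.09 (edgeR adjusted p = 0.000218). Atp5mc2 measured 45.2, 51.5, 53.9 and 58.2 CPM in the 4 Sham rats, 42, 34.2, 42.2 and 39.6 CPM in the 4 MI rats and 43.4, 41, 40.3 and 39.3 CPM in the 4 MI + UA rats, and fell with a log2 fold change of -0.40 ± 0.10 (edgeR adjusted p = 0.00814). The ratio of Atp5mc2 to Atp5mc3 counts within a library had a geometric mean of 0.2 in Sham, 0.223 in MI and 0.215 in MI + UA, and the groups overlapped. The third gene, Atp5mc1, had 2 entries with 63 and 32 reads over all 12 libraries. Atp5mc1, Atp5mk and Uqcrb each had 2 entries, so reads of these genes may have been split or dropped and their counts are uncertain. A second Atp5mk entry held 59 reads, and a second Uqcrb entry (ENSRNOG00000032204) held 0 and was the member not tested.

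Of the 5 entries for small subunits that shape the membrane part of the enzyme, 4 fell. Atp5mf measured 88.7, 110, 105 and 115 CPM in the 4 Sham rats, 71.4, 71.8, 75.2 and 73.9 CPM in the 4 MI rats and 86.5, 77.1, 80.1 and 78.7 CPM in the 4 MI + UA rats, with a log2 fold change of -0.52 ± 0.09 in MI (edgeR adjusted p = 0.000403). Atp5me measured 16.1, 20.8, 17.7 and 18.5 CPM in the 4 Sham rats, 10.7, 13.3, 12.9 and 12.6 CPM in the 4 MI rats and 11.8, 8.22, 9.61 and 15.8 CPM in the 4 MI + UA rats. Its mean log2 fold change was -0.56 ± 0.16 in MI (edgeR adjusted p = 0.0251), and the MI + UA rats spread more widely than either other group. Atp5mg and Atp5mk fell by 0.48 and 0.43 on the log2 scale. Atp5if1, the inhibitor that keeps ATP synthase from running backwards when the gradient collapses, measured 18.4, 13.6, 16.2 and 18.7 CPM in the 4 Sham rats, 12.9, 14.9, 12.9 and 12.8 CPM in the 4 MI rats and 14.2, 13.2, 12.3 and 10.1 CPM in the 4 MI + UA rats. Its groups overlapped, and the log2 fold change in MI was -0.34 ± 0.13 (edgeR adjusted p = 0.119). With rat 66 counted in MI it was -0.417 (edgeR adjusted p = 0.0389).

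The 2 subunits that the mitochondrial genome encodes, Mt-atp6 and Mt-atp8, did not pass the test. Mt-atp6, the subunit that forms the proton path beside the c ring, measured 25600, 27900, 23400 and 24600 CPM in the 4 Sham rats, 20400, 26300, 20200 and 20700 CPM in the 4 MI rats and 23300, 18200, 21900 and 25900 CPM in the 4 MI + UA rats. MI rat 57 lay among the Sham rats, and the log2 fold change was -0.21 ± 0.11 (95% interval -0.436 to 0.013; edgeR adjusted p = 0.242). Mt-atp8 had a log2 fold change of -0.35 ± 0.18, and its reading frame overlaps that of Mt-atp6, so reads of the shared part cannot be told apart. The value for Mt-atp8 ran from -0.508 without Sham rat 12 to -0.124 without Sham rat 17 and passed the test in neither case. Over the 13 mitochondrially encoded genes the median log2 fold change was -0.187, and 1 of them was called lower. Mt-atp6 counts divided by Atp5f1a counts gave 44, 41.4, 36.4 and 34.2 in Sham, 45.3, 58.3, 47 and 45.9 in MI, and 50.6, 42.2, 48.1 and 52.3 in MI + UA. The ratio was higher in each MI rat than in each Sham rat, with a log2 difference of 0.33 (exact permutation test, two-sided, p = 0.0286, the smallest that 4 against 4 rats allow; adjusted p = 0.114 over 24 tests). Rat 58 of MI + UA lay within the Sham range.

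Complex III subunits fell in 6 of 9 cases, among them both core subunits. Uqcrc2 (ENSRNOG00000036742), a core subunit on the matrix side, measured 168, 180, 181 and 199 CPM in the 4 Sham rats, 122, 117, 125 and 117 CPM in the 4 MI rats and 136, 125, 127 and 150 CPM in the 4 MI + UA rats. The mean was 182 ± 12.9 CPM in Sham and 120 ± 4.05 CPM in MI (SD, n = 4 each), a log2 fold change of -0.60 ± 0.08 (edgeR adjusted p = 6.2e-05), and its Sham rats stood apart from all infarcted rats. Uqcrc1, the other core subunit, measured 150, 164, 173 and 169 CPM in the 4 Sham rats, 131, 120, 108 and 110 CPM in the 4 MI rats and 125, 117, 118 and 126 CPM in the 4 MI + UA rats, with a log2 fold change of -0.49 ± 0.08 (edgeR adjusted p = 0.00045).

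Of the 3 subunits that carry the electrons, the 2 nuclear ones fell. Cyc1, cytochrome c1, measured 173, 202, 225 and 237 CPM in the 4 Sham rats, 150, 159, 149 and 146 CPM in the 4 MI rats and 156, 141, 160 and 158 CPM in the 4 MI + UA rats. It was lower in MI with a log2 fold change of -0.47 ± 0.09 (edgeR adjusted p = 0.00147), and its Sham rats ranged widely. Uqcrfs1, the Rieske iron-sulfur protein, fell by 0.48 on the log2 scale. Mt-cyb, cytochrome b, measured 58700, 58900, 52400 and 53300 CPM in the 4 Sham rats, 46100, 57300, 41800 and 47300 CPM in the 4 MI rats and 53400, 41800, 48000 and 58700 CPM in the 4 MI + UA rats. The groups overlapped, with a log2 fold change of -0.21 ± 0.11 (95% interval -0.439 to 0.011; edgeR adjusted p = 0.237). The ratio of Mt-cyb to Cyc1 counts had geometric means of 268 in Sham, 317 in MI and 326 in MI + UA, and its difference between MI and Sham had an exact permutation p of 0.2. Among the small subunits Uqcr10 and Uqcrb fell, with log2 fold changes of -0.48 and -0.39, though Uqcrb overlapped between groups. Uqcrh and Uqcrq had values of -0.27 (edgeR adjusted p = 0.181) and -0.23 (edgeR adjusted p = 0.157).

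Assembly factors help to build the complexes without remaining in them. Tmem70, which assists c ring assembly, measured 13.9, 15.3, 13.5 and 14.8 CPM in the 4 Sham rats, 11.4, 9.41, 9.76 and 8.47 CPM in the 4 MI rats and 10.8, 8.86, 9.74 and 9.68 CPM in the 4 MI + UA rats, and fell with a log2 fold change of -0.55 ± 0.13 (edgeR adjusted p = 0.0064). Uqcc1, needed for cytochrome b synthesis, measured 52.6, 58.7, 53.5 and 60 CPM in the 4 Sham rats, 43.1, 36.2, 41.5 and 41.6 CPM in the 4 MI rats and 40.8, 41.5, 43 and 41.6 CPM in the 4 MI + UA rats, and fell with a log2 fold change of -0.46 ± 0.08 (edgeR adjusted p = 0.00091). Both genes separated the Sham rats from all 8 infarcted rats. Atpaf1, a chaperone of the beta subunit, measured 30.5, 36.1, 39.6 and 37.1 CPM in the 4 Sham rats, 29.8, 28.4, 25.7 and 21.5 CPM in the 4 MI rats and 27.9, 22.9, 26.7 and 25.5 CPM in the 4 MI + UA rats, and fell with a log2 fold change of -0.44 ± 0.11 (edgeR adjusted p = 0.0131). Atpaf2, the chaperone of the alpha subunit, measured 10.3, 13.4, 11.3 and 15.4 CPM in the 4 Sham rats, 12, 13.2, 10.9 and 11.7 CPM in the 4 MI rats and 11.5, 9.76, 10.7 and 13.9 CPM in the 4 MI + UA rats. Its groups overlapped, and the log2 fold change was -0.09 ± 0.15. The ratio of Atpaf1 to Atpaf2 counts had geometric means of 2.86 in Sham, 2.19 in MI and 2.26 in MI + UA, and MI against Sham gave an exact permutation p of 0.0571. Uqcc3, with 208 reads in all, had a log2 fold change of -0.004 with a 95% interval from -0.725 to 0.717, so its depth set no close limit.

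**Figure D2:**
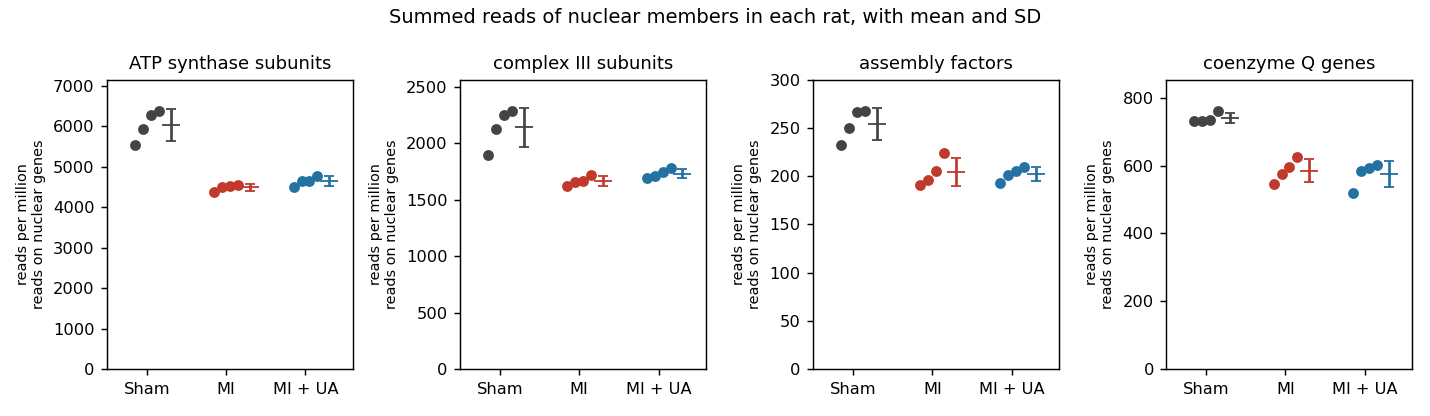
Summed reads of the nuclear members of each class in each rat (points), in CPM of reads on nuclear genes, with mean and SD beside them (n = 4 per group). ATP synthase subunits sum to 5530 to 6390 in Sham, 4380 to 4560 in MI and 4500 to 4780 in MI + UA, and in each of the 4 classes the Sham rats lie above all infarcted rats.

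The same difference was present when mitochondrial reads were left out of the denominator. Scaled to CPM of reads on nuclear genes alone, nuclear ATP synthase subunits summed to 6040 ± 390 (SD, n = 4) in Sham, 4490 ± 78.9 in MI and 4650 ± 115 in MI + UA. Complex III subunits summed to 2140 ± 175, 1670 ± 41.1 and 1730 ± 40.3, and coenzyme Q genes to 740 ± 14.5, 586 ± 32.6 and 575 ± 38.1. Assembly factors summed to 254 ± 17, 204 ± 14.5 and 202 ± 7.18. In all 4 sums the lowest Sham rat lay above the highest infarcted rat, and MI and MI + UA overlapped. Abundant genes weigh most in such a sum. Sham means were 1110 and 654 CPM for Atp5f1b and Atp5f1a, and 108 and 93.5 CPM for Coq9 and Coq8a. The sums therefore do not show that each member of a class fell, and 8 of 13 coenzyme Q genes were not called in MI against Sham.

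Coenzyme Q genes had log2 fold changes on both sides of 0 in MI against Sham, from -0.79 to 0.484. Coq8a (ENSRNOG00000043201), an atypical kinase of the coenzyme Q synthesis complex that is abundant in muscle, measured 101, 88.2, 91.7 and 93 CPM in the 4 Sham rats, 57.5, 45.8, 47.7 and 64.4 CPM in the 4 MI rats and 54.9, 46.9, 58.9 and 55.1 CPM in the 4 MI + UA rats. Its mean of 93.5 ± 5.4 CPM in Sham stood against 53.8 ± 8.68 CPM in MI (SD, n = 4 each), a log2 fold change of -0.79 ± 0.10 (edgeR adjusted p = 4.36e-05), the largest called change among the members. The highest infarcted rat, at 64.4 CPM, lay below the lowest Sham rat, at 88.2 CPM. Its paralog Coq8b (ENSRNOG00000020848) measured 5.02, 3.75, 4.21 and 3.93 CPM in the 4 Sham rats, 5.26, 6.9, 4.98 and 5.13 CPM in the 4 MI rats and 4.51, 7.83, 4.87 and 4.84 CPM in the 4 MI + UA rats. The values were low and overlapped between groups, with a log2 fold change of 0.38 ± 0.21 in MI (edgeR adjusted p = 0.301).

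Counts of Coq8a divided by those of Coq8b within a library gave 20.1, 23.5, 21.8 and 23.6 in Sham, 10.9, 6.64, 9.58 and 12.5 in MI, and 12.2, 5.98, 12.1 and 11.4 in MI + UA. Every Sham rat lay above every infarcted rat, and the log2 difference from Sham was -1.20 in MI and -1.15 in MI + UA. Each comparison had an exact permutation p of 0.0286 (two-sided) and an adjusted p of 0.114 over the 24 tests of 8 pairs in 3 comparisons, so no pair passed the correction, which with this number of tests and rats gave no adjusted p under 0.114. The comparisons with Sham share the Sham rats.

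Coq3, a methyltransferase that acts on the ring of coenzyme Q, measured 17.2, 16.7, 17 and 15.6 CPM in the 4 Sham rats, 11.6, 9.88, 8.61 and 12.1 CPM in the 4 MI rats and 12.2, 8.35, 13.1 and 12.7 CPM in the 4 MI + UA rats. It fell with a log2 fold change of -0.64 ± 0.14 (edgeR adjusted p = 0.00504), and all infarcted rats lay under the Sham range. Coq9, a lipid-binding protein of the same complex, measured 96.3, 108, 117 and 109 CPM in the 4 Sham rats, 89.3, 85.5, 70.8 and 79 CPM in the 4 MI rats and 82.8, 65.8, 88.6 and 84.5 CPM in the 4 MI + UA rats, and fell with a log2 fold change of -0.41 ± 0.10 (edgeR adjusted p = 0.00957). Coq2, which joins the isoprenoid tail to the ring, fell by 0.38 on the log2 scale. The other ring enzymes, Coq4, Coq5, Coq6 and Coq7, had log2 fold changes between -0.332 and -0.151 and did not pass the test. Of these Coq4 and Coq7 had only 212 and 362 reads in all. With rat 66 counted in MI the values of Coq4, Coq6 and Coq7 became -0.394, -0.234 and -0.138, from -0.164, -0.151 and -0.23. With 1 rat left out at a time, Coq5 ran from -0.431 without MI rat 57 to -0.211 without MI rat 89, Coq6 from -0.246 without MI rat 61 to -0.055 without MI rat 89, and Coq7 from -0.356 without Sham rat 32 to -0.07 without MI rat 57.

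Coq10a, a coenzyme Q binding protein, measured 33, 42.1, 42.4 and 44.1 CPM in the 4 Sham rats, 33.4, 28.4, 26.9 and 27.7 CPM in the 4 MI rats and 30.3, 25.8, 31.1 and 35.7 CPM in the 4 MI + UA rats. It fell with a log2 fold change of -0.47 ± 0.12 (edgeR adjusted p = 0.00962), although Sham rat 12, at 33 CPM, lay just under the highest MI rat, at 33.4 CPM. Coq10b, its paralog, measured 10.4, 9.53, 10.8 and 11.9 CPM in the 4 Sham rats, 10.2, 13.8, 14.8 and 11.2 CPM in the 4 MI rats and 15.1, 11.8, 9.88 and 17.8 CPM in the 4 MI + UA rats. The log2 fold change was 0.22 ± 0.17 (edgeR adjusted p = 0.498) and the groups overlapped. The value was 0.351 with rat 66 counted in MI and 0.119 without MI rat 61. The ratio of Coq10a to Coq10b counts had geometric means of 3.78 in Sham, 2.34 in MI and 2.29 in MI + UA, with exact permutation p values of 0.0571 for MI and 0.0286 for MI + UA against Sham (adjusted p = 0.152 and 0.114).

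The isoprenoid tail is made by a complex of Pdss1 and Pdss2. Pdss1 measured 4.01, 4.04, 6.23 and 6.2 CPM in the 4 Sham rats, 7.09, 8.94, 7.16 and 5.78 CPM in the 4 MI rats and 6, 6.16, 6.63 and 7.2 CPM in the 4 MI + UA rats, and Pdss2 measured 13.8, 16.7, 17.2 and 18 CPM in the 4 Sham rats, 13.9, 13.5, 13.3 and 13.6 CPM in the 4 MI rats and 13.8, 10.5, 11.4 and 13.4 CPM in the 4 MI + UA rats. Their log2 fold changes in MI were 0.48 ± 0.19 (edgeR adjusted p = 0.117) and -0.27 ± 0.12 (edgeR adjusted p = 0.171), so neither passed the test alone. The ratio of Pdss1 to Pdss2 counts was 0.291, 0.241, 0.363 and 0.344 in Sham, 0.511, 0.663, 0.539 and 0.425 in MI, and 0.436, 0.585, 0.583 and 0.538 in MI + UA. Each infarcted rat lay above each Sham rat, with an exact permutation p of 0.0286 (adjusted p = 0.114) in both comparisons. Pdss1, Coq8b and Coq10b were the 3 members with a log2 fold change above 0.

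**Figure D3:**
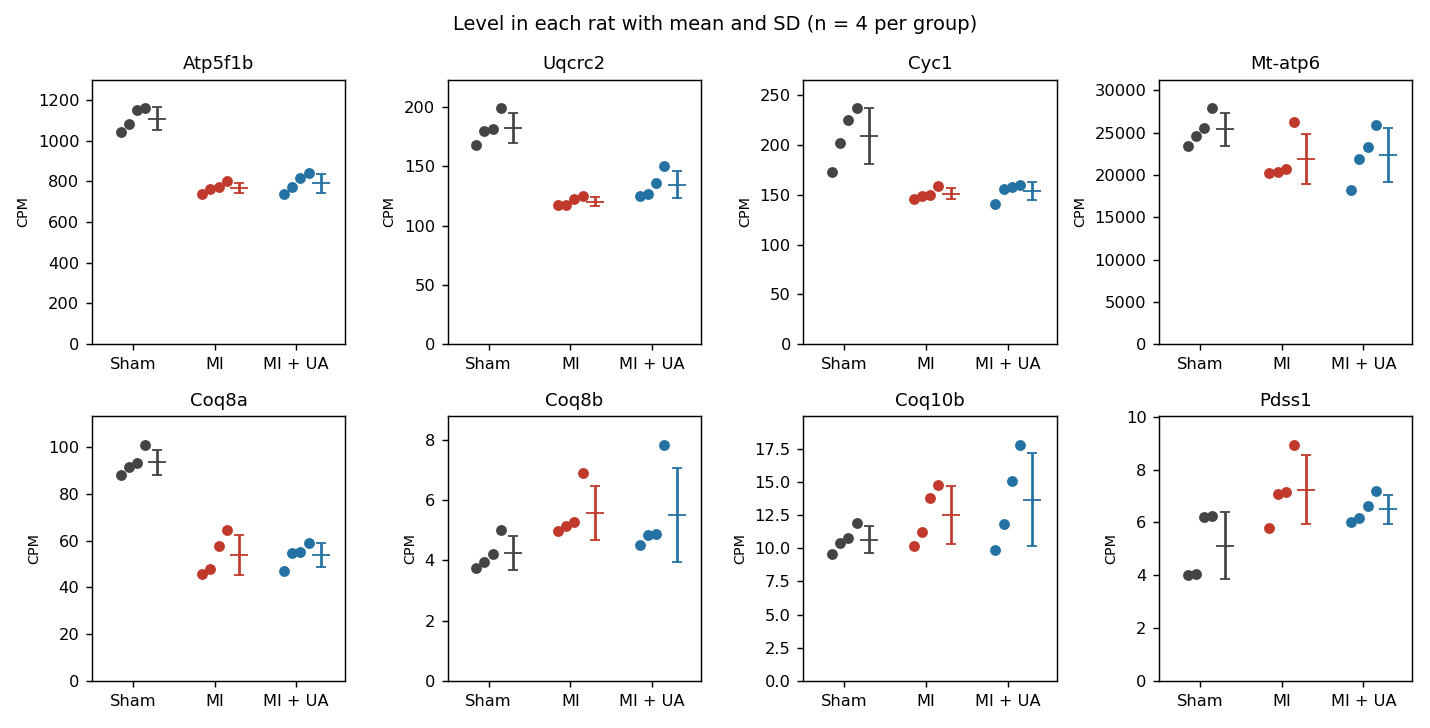
Level of 8 members in each rat (points, CPM), with mean and SD beside them (n = 4 per group). Atp5f1b, Uqcrc2 and Coq8a separate Sham from all infarcted rats, while Mt-atp6, Coq8b, Coq10b and Pdss1 overlap between groups.

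**Figure D4:**
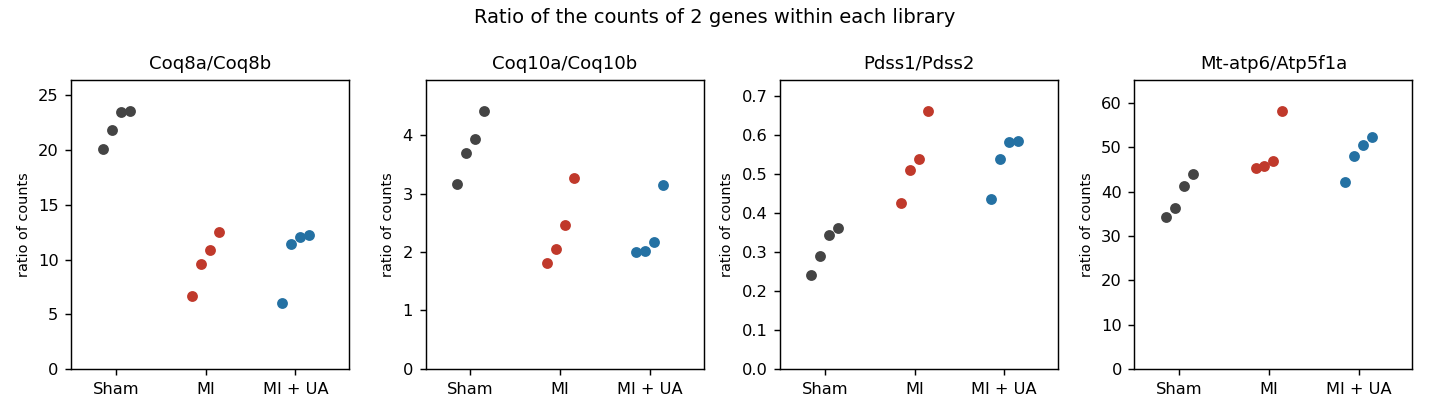
Ratio of the counts of 2 genes within each library, 1 point per rat. Coq8a to Coq8b lies between 20.1 and 23.6 in Sham and at or below 12.5 in all infarcted rats, and Pdss1 to Pdss2 is higher in all infarcted rats than in Sham.

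The starts of the member genes were read from RefSeq (assembly GRCr8), which held the 300 bases around the start for 35 of the 44 symbols. Short motifs named for factors of mitochondrial gene control were searched on both strands: GCGCANGCG for NRF1, CCGGAAG for the ETS family that includes GABPA, TNAAGGTCA for estrogen-related receptors and AANATGGCG for YY1. The letters of the 4 motifs were allowed to overlap each other. The NRF1 letters stood in 7 of 35 member windows (20%) against 5.8% of all 33469 windows and 7.62% of windows of protein-coding genes. The ETS letters stood in 12 (34.3%) against 8.75% and 10.7%, and the YY1 letters in 10 (28.6%) against 3.01% and 3.67%. The ERR letters stood in 1, Atp5mc3 (2.86%), against 1.2% and 1.01%. Such a match describes the letters of a window and is not evidence of binding. The 150 bases before the start are shown for the paralogs Coq8a and Coq8b, which differed in level, for Pdss1, and for 3 subunit genes that fell, with matches in capitals.
Coq8a (chr13:94463379-94463528, strand -): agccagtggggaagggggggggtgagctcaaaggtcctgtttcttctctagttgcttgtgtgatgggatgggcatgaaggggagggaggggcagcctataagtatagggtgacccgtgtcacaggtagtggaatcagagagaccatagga
Coq8b (chr1:91654153-91654302, strand +): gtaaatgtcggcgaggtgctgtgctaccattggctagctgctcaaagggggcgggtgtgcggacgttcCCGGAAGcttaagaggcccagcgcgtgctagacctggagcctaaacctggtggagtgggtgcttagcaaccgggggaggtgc
Pdss1 (chr17:89968344-89968493, strand +): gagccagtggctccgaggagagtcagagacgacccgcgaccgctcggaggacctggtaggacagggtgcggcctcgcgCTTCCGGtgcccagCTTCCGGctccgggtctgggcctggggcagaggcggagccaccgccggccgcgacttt
Uqcrc2 (chr1:184599090-184599239, strand +): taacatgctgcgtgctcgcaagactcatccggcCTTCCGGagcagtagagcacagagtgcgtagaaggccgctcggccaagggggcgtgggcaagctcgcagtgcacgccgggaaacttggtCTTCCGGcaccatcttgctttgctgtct
Uqcrc1 (chr8:118468073-118468222, strand +): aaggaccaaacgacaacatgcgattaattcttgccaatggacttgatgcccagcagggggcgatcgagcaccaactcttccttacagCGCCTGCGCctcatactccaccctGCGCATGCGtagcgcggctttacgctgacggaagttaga
Atp5mc3 (chr3:79220665-79220814, strand -): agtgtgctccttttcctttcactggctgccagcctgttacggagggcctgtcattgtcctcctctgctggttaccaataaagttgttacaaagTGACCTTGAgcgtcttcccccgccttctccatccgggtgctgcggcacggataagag
Counted from the start, with -1 the last base before it, the capitals mark the ETS letters at -82 to -76 in Coq8b, at -72 to -66 and -58 to -52 in Pdss1, and at -117 to -111 and -28 to -22 in Uqcrc2. In Uqcrc1 they mark the NRF1 letters at -63 to -55 and -39 to -31, and in Atp5mc3 the ERR letters at -57 to -49. Coq8a had none of the 4 motifs in its window. Genes that fell and genes that did not both held matches, as Uqcrc2 and Pdss1 show.

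Genes that work beside the members were read from lists of the same pathway. Among 10 genes listed for the reduction of coenzyme Q, 6 fell in MI. Of these, Sdha, Sdhb, Sdhc and Sdhd, the 4 subunits of succinate dehydrogenase, had log2 fold changes from -0.58 to -0.463. Etfa and Etfdh of the fatty acid route had -0.62 (edgeR adjusted p = 1.66e-05) and -0.64 (edgeR adjusted p = 7.59e-05). Of the 10, 9 lay below 0, the lowest at -0.652 in a gene that did not pass the test. Sqor, the sulfide:quinone oxidoreductase of the same list, was the only 1 above 0, at 0.67 ± 0.225, and did not pass the test (edgeR adjusted p = 0.0602). Of 7 carriers and further ATP synthase factors 3 fell, among them Slc25a4, the ADP/ATP carrier of heart and muscle, by 0.51 on the log2 scale, and Oxa1l, a membrane insertase, by 0.56. Cytochrome c itself, Cycs, fell by 0.50, as 1 of 4 genes in its list. Of 9 regulators of mitochondrial gene expression 2 fell, Ppargc1a by 0.55 and Ppargc1b by 0.39. None of the 8 genes of isoprenoid supply passed the test, and their median log2 fold change was 0.07.

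Urolithin A was compared with vehicle in infarcted rats. No member passed the test in MI + UA against MI by edgeR, where 0 of all 18182 genes tested passed. DESeq2 called 0 members as well. At an unadjusted p under 0.05 there were 0 of 46 members, against 689 of 18182 genes (3.79%). The median log2 fold change was 0.045 over the members and 0.005 over all genes, and 32 of 46 members had a value above 0. By class the median was 0.098 for ATP synthase subunits, 0.053 for complex III subunits, 0.005 for assembly factors and -0.025 for coenzyme Q genes. Atp5mf was the only member in which each MI + UA rat lay above each MI rat, a pattern seen in 1.18% of all genes, and its log2 fold change was 0.14 ± 0.09 (edgeR unadjusted p = 0.108).

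The intervals show what size of difference these rats leave possible. For Atp5f1b the log2 fold change between MI + UA and MI was 0.04, with a 95% interval from -0.111 to 0.195, beside -0.53 between MI and Sham. For Uqcrc2 it was 0.16 (-0.005 to 0.33), the smallest unadjusted p among the members at 0.0565, and the level was 135 ± 11.2 CPM in MI + UA, between MI and Sham. That value turned on rat 66, the highest MI + UA rat: it was 0.105 without this rat and 0.035 with the rat counted in MI. Coq8a differed by -0.003 (-0.219 to 0.213) and stood at 53.9 ± 5.05 CPM. Mt-atp6 differed by 0.03 (-0.199 to 0.25) and Mt-cyb by 0.07 (-0.156 to 0.295). Sparse members had wider intervals, such as Coq4 from -1.141 to 0.268. With rat 66 counted in MI, 0 members passed again and the median over the members was 0.005, while Atp5f1a, Atp5f1b, Mt-atp6 and Mt-cyb had values below 0.

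Infarcted rats given urolithin A were also set against Sham, with the Sham rats shared between both comparisons. There 28 of 46 members fell and 0 rose by edgeR, where 4.27% of all genes fell and 5.16% rose, and the median log2 fold change was -0.398 against 0.023 over all genes. For 26 members each MI + UA rat lay below each Sham rat, as in 6.46% of all genes. The markers of cell types moved here too: 9 of 9 cardiomyocyte markers were lower (median -0.426 on the log2 scale), while 6 of 8 fibroblast and 7 of 8 macrophage markers were higher. In MI + UA rats fibroblast markers summed to 2210 to 3690 CPM and macrophage markers to 206 to 424 CPM, and their part in these differences was not tested. Coq8a again led, with a log2 fold change of -0.79 ± 0.10 (edgeR adjusted p = 5.3e-05), followed by Atp5me with -0.64 ± 0.16 (edgeR adjusted p = 0.0124). Atp5if1 and Pdss2 passed here, with -0.43 (edgeR adjusted p = 0.0442) and -0.40 (edgeR adjusted p = 0.0412), and Uqcrb did not, with -0.34 (edgeR adjusted p = 0.0512). These 3 lay close to the threshold. Uqcrb passed under 6 of the 7 alternatives that kept all rats, with adjusted p values from 0.029 (DESeq2) to 0.0499, and not with rat 66 counted in MI. Over the 19 alternatives, leaving out each rat included, Atp5if1 lost its call in 11 (edgeR adjusted p = 0.17 with rat 66 counted in MI) and Pdss2 in 7, among them a minimum of 1 count (edgeR adjusted p = 0.0514) and a fit of only these 2 groups (edgeR adjusted p = 0.0539). Mt-atp6 and Mt-cyb had log2 fold changes of -0.19 (edgeR adjusted p = 0.338) and -0.14 (edgeR adjusted p = 0.483). Without rat 58 they were -0.10 and -0.065, and without rat 66 -0.266 and -0.225, and they did not pass in these fits. Mt-atp8 had -0.46 ± 0.18 (95% interval -0.838 to -0.089; edgeR adjusted p = 0.121), and it passed with a minimum of 1 count (edgeR adjusted p = 0.0285) and without Sham rat 12 (edgeR adjusted p = 0.0247).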

How the data were processed

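RNA from formalin-fixed heart sections of 12 rats was sequenced after rRNA depletion, although the labels name polyA RNA. The authors deposited raw read counts per gene, mapped per the labels with STAR 2.6.1c to mRatBN7.2 and counted with HTSeq; the strand setting of the counting is not given in the sources used here. The 5 summary lines of the count table were left out; reads not assigned to a gene were 51.7 to 57.1% of each library. The labels give groups and rat numbers. Counts were fitted in edgeR 4.0.16 (R 4.3.3) with TMM scaling, at least 10 reads in total, the 3 groups in 1 quasi-likelihood fit and Benjamini-Hochberg adjustment over all genes, and the SE was taken from the F statistic. Intervals are 95% t intervals from that fit. Count ratios within libraries were compared by exact permutation tests. P-values measure the spread between rats. The fit was tested on simulated data. Alternatives were DESeq2 1.42.0, its size factors, other filters, scaling without mitochondrially encoded genes, fits of 2 groups, each rat left out, rat 66 counted in MI, and 0.5 count added to ratios. Members and lists were chosen with earlier results of these data known. Values in every rat are given for the called members with the 12 largest changes, paired genes and the most abundant member of each class. Libraries of a group differed by more than sampling noise. Figures were drawn with matplotlib 3.10.9.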

Additional observations from a re-analysis of the deposited data

Results flagged for a closer look

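In 11 of 117 groups of 4 rats examined, 1 rat stood apart from the other 3, its gap to the nearest of them taking more than 0.829 of the range of the group; chance alone gives about 1 in 20, or 5.85 groups. Sham rat 12 was low in Atp5po (125 CPM against 159 to 165; 0.855 of the range) and in Coq10a (33 CPM against 42.1 to 44.1; 0.844). MI rat 57 was high in Mt-atp6 (26300 CPM against 20200 to 20700; 0.906), in Atp5if1 (14.9 CPM against 12.8 to 12.9; 0.959), in Coq8b (6.9 CPM against 4.98 to 5.26; 0.831) and in the ratio of Mt-atp6 to Atp5f1a (58.3 against 45.3 to 47; 0.854). MI rat 61 was low in Atp5f1a (430 CPM against 451 to 452; 0.958). MI + UA rat 58 was low in Coq3 (8.35 CPM against 12.2 to 13.1; 0.844), high in Coq8b (7.83 CPM against 4.51 to 4.87; 0.863) and low in the ratio of Coq8a to Coq8b (5.98 against 11.4 to 12.2; 0.905). Sham rat 32 was high in the summed coenzyme Q genes (762 CPM of nuclear reads against 732 to 734; 0.933). Rats 57 and 58 account for 7 of the 11, and their libraries were the smallest of their groups, with 6829591 and 6819444 reads on genes; the part of depth was not tested.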

How the results depend on the processing

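No paired analysis was possible because the 3 groups hold different animals and share no rat number. With 1 rat left out at a time, members called in MI against Sham ranged from 23 to 28, in MI + UA against Sham from 19 to 29, and in MI + UA against MI stayed at 0. Of the 28 called in MI + UA against Sham, 18 kept their call under every alternative. Over the whole table, MI + UA against MI gave 3 genes with a minimum of 1 count and 1 gene without MI rat 36. In MI against Sham, Uqcrh (-0.269) passed without Sham rat 12 (-0.378; edgeR adjusted p = 0.0412) but was -0.122 without Sham rat 38 (edgeR adjusted p = 0.593), and Uqcrq (-0.231) passed without MI rat 57 (edgeR adjusted p = 0.0386) and ranged down in size to -0.173 without MI rat 36 (edgeR adjusted p = 0.358). Reversed signs were seen for values that did not pass the test. With rat 66 counted in MI, log2 fold changes in MI + UA against MI became -0.023 for Atp5f1a, -0.016 for Atp5f1b, -0.07 for Coq10a, -0.105 for Mt-atp6, -0.073 for Mt-cyb, -0.124 for Coq10b, 0.084 for Atp5if1 and 0.075 for Coq8b, and the Atp5if1 to Atp5f1b ratio changed by 0.083. Atp5mc1 against Sham became -0.155 in MI + UA, and the second Atp5mk entry and Uqcc3 became 0.143 and 0.152 in MI. Under edgeR's own expression filter Tmem70 became -0.001 in MI + UA against MI. With 1 rat left out, values in MI + UA against MI ranged from -0.069 to 0.094 for Coq8a, -0.29 to 0.037 for Atp5me, -0.064 to 0.098 for Tmem70, -0.009 to 0.08 for Atp5mc2, -0.002 to 0.161 for Coq10a, -0.118 to 0.045 for Atpaf1, -0.054 to 0.126 for Mt-atp6, -0.011 to 0.164 for Mt-cyb, -0.181 to 0.004 for Atp5if1, -0.217 to 0.074 for Coq8b, -0.151 to 0.028 for Atpaf2, -0.013 to 0.063 for Uqcc1 and -0.071 to 0.071 for Coq9. Against Sham, Atp5mc1 ranged from -0.224 to 0.388 in MI + UA, and in MI Atpaf2 ranged from -0.176 to 0.032, Coq4 from -0.279 to 0.062, the second Atp5mk entry from -0.408 to 0.31 and Uqcc3 from -0.254 to 0.335. The cause of these changes was not tested. Depth limits the sparse members (Atp5mc1, Atp5mk second entry, Uqcc3, Coq4, Coq7) most.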
